A study of Mus musculus with 14 samples.

Results

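The genes described are 6 enzymes of the pentose phosphate pathway and of cytosolic NADPH production, G6pdx, Pgd, Taldo1, Tkt, Me1 and Idh1. The rule names the genes and uses no measured value, and a probe was taken as theirs when its accession on the array belonged to one of them in RefSeq. This gave 8 probes of 55681 and 6 genes of 20018 with a symbol on the array: Me1 had 3 probes and each of the other genes had 1. Liver RNA was measured in 14 female B6C3F1 mice, a hybrid laboratory strain, whose labelled age was 5 to 6 weeks. Of these, 4 controls received the corn oil vehicle alone, 5 mice received furan at 1 mg/kg body weight and 5 received furan at 8 mg/kg, by gavage for 21 days, with the liver taken 4 h after the last dose. All 14 mice, the controls included, also drank bromodeoxyuridine (BrdU), a thymidine analogue taken up into new DNA, over the final 5 days, so no group shows the liver without it. Mice shared cages, and no further genetic change was labelled.

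The pentose phosphate pathway takes glucose 6-phosphate out of glycolysis. Its oxidative branch makes NADPH, and its non-oxidative branch moves carbon between sugar phosphates, so that the ribose left over can enter nucleotides or return to glycolysis. Malic enzyme and cytosolic isocitrate dehydrogenase supply NADPH by other routes. Hepatocytes spend NADPH on fatty acid synthesis and on reductases that keep glutathione and thioredoxin reduced. Several of these enzymes are known targets of NRF2, the transcription factor encoded by Nfe2l2 that responds to electrophiles, and Me1 is also known as a lipogenic gene of the fed liver. Furan is a small ring compound formed in heated food, and hepatic cytochrome P450 oxidises it to a reactive dialdehyde.

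Each array compared liver RNA, labelled with Cy5, with a universal mouse reference RNA, labelled with Cy3, and the values are log2 ratios of liver over reference. A ratio above 0 means more signal from liver than from the reference. The dyes were not swapped, so a dye effect cannot be told apart from the amount of transcript in such a ratio. Ratios of different probes are not compared as amounts. The liver channel lay well above background for 41.4% to 53.6% of probes, depending on the array, and precision is limited by how many arrays there are. All 8 probes were well above background in both channels on all 14 arrays, and none was saturated. The arrays lay on 5 slides, 4 of which held all 3 groups and the last 1 array of each furan dose. Slides differed: 87.2% of the leading principal component, which carried 30.7% of all variance, was between slides, and slide 3 stood out. Slide was therefore a block in every test, and each gene's difference at 8 mg/kg from control is also given without slide 3. Hepatocyte markers were well above background on all 14 arrays.

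The promoters of the 3 genes with the smallest p-values at 8 mg/kg are shown, since NRF2 and lipogenic factors are known to act on genes of this pathway through short DNA elements. Each sequence is the 250 bases before the RefSeq start on build GRCm38.p6, read 5′ to 3′ on the strand of the gene, with searched motifs in capitals. G6pdx lies on the minus strand at chrX:74428881-74429130, Taldo1 on the plus strand at chr7:141391910-141392159, and Me1 on the minus strand at chr9:86695915-86696164. The capitals mark, on either strand, the antioxidant response element core TGACNNNGC, the GC box GGGCGG and the CCAAT box. The other motifs searched were the E-box CACGTG and the sterol response element TCACNCCAC. Neighbouring GC boxes may lie end to end, as they do in Me1.
G6pdx: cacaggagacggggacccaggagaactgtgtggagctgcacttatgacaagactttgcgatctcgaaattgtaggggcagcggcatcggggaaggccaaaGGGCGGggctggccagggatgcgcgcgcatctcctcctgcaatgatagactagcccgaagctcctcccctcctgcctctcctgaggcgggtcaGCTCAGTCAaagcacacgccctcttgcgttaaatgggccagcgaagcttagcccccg
Taldo1: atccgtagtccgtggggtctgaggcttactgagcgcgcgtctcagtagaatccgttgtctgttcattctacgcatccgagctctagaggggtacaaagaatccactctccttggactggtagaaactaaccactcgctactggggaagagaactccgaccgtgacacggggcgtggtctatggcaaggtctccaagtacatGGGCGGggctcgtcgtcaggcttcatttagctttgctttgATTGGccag
Me1: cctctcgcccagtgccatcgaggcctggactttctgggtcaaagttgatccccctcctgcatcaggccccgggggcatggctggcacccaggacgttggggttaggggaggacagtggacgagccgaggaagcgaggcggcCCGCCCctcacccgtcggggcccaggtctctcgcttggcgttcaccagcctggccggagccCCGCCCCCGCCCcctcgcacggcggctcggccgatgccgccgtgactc

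The antioxidant response element core was present in 1 of the 6 genes, G6pdx, against 11.5% of all 27025 genes. In G6pdx it began 57 bases before the start on the opposite strand. By window it was in 1 of 9, against 10.2% of all 32851 promoter windows. Counted by window, since some genes have more than 1, a GC box was in 7 of the 9 windows of the 6 genes, against 32.7% of all windows, and a CCAAT box in 4 of 9, against 33.8%. Neither the E-box (6.02% of all windows) nor the sterol response element (1.05%) was present in any of the 9 windows. A match describes the letters of the window, and a missing match says only that these letters are not in these 250 bases.

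At 8 mg/kg against control, none of the 6 genes passed the test, which was limma with the slide as a block and p-values adjusted by the Benjamini-Hochberg method over all 21976 features, at a threshold of 0.05. The share of all features that passed was 4.09% (599 higher and 299 lower), and a count of 0 of 6 is near that share. At an unadjusted p under 0.05 the count was 3 of 6, with G6pdx and Taldo1 higher and Me1 lower, against 20.3% of all features. The log2 differences of the 6 genes ran from -0.44 for Me1 to 0.37 for G6pdx, with a median of 0.076 against 0.00176 over all features. For every gene the ratios of the control and 8 mg/kg mice overlapped, and the share of all features that did so was not counted. In bulk tissue, fewer cells of a type and less RNA per cell cannot be told apart.

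**Figure D1:**
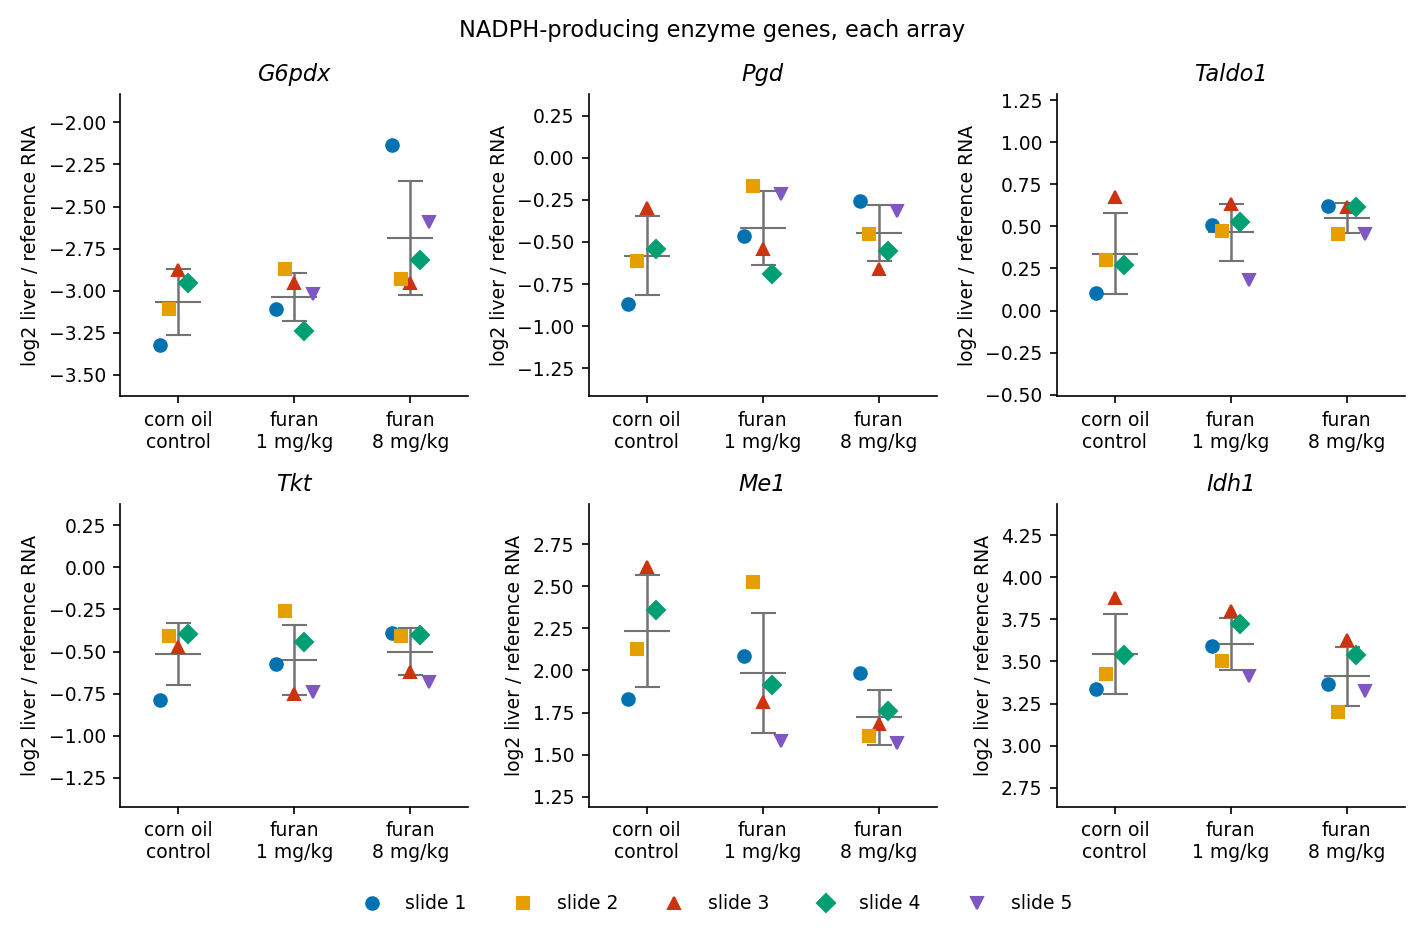
Log2 ratio of liver over reference RNA (vertical axis, a scale for each gene) for the 6 genes in control, 1 mg/kg and 8 mg/kg mice; each point is an array, marked by its slide, and bars show the group mean with its SD. Ratios of the 3 groups overlap in every panel, and the highest G6pdx value, -2.14, is 1 mouse at 8 mg/kg.

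In the oxidative branch, G6pdx encodes glucose-6-phosphate dehydrogenase, the enzyme of the first and rate-limiting step. Its log2 ratios in control replicates 1 to 4 were -3.32, -3.11, -2.88 and -2.96. The 1 mg/kg mice, replicates 1 to 5, read -3.11, -3.02, -2.87, -2.95 and -3.24. The 8 mg/kg mice read -2.14, -2.95, -2.59, -2.82 and -2.93. Of the 8 mg/kg mice, replicates 1, 3 and 4 lay above every control and every 1 mg/kg mouse, while replicates 2 and 5 lay within the range of both groups. Its signal was lower in liver than in the reference, which read 8.37 times as high in the control mice. The difference at 8 mg/kg was 0.37 ± 0.16 (SE; 95% interval 0.02 to 0.71; limma adjusted p = 0.215), a 1.29-fold higher mean. With the same spread, only a difference of 0.60 or more would have passed. The value rested on the pair of mice of slide 1: without replicate 1 at 8 mg/kg the difference was 0.16 (adjusted p = 0.538), and without control replicate 1 it was 0.20 (adjusted p = 0.572). Without slide 3 it was 0.50 (adjusted p = 0.169).

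Pgd encodes 6-phosphogluconate dehydrogenase, which makes the NADPH of the last oxidative step. The ratios in control replicates 1 to 4 were -0.87, -0.61, -0.30 and -0.54. The 1 mg/kg mice read -0.46, -0.22, -0.17, -0.54 and -0.69, and the 8 mg/kg mice -0.25, -0.66, -0.31, -0.55 and -0.45. The controls had the widest range, and the 3 groups lay over one another. The difference at 8 mg/kg was 0.09 ± 0.13 (95% interval -0.19 to 0.37; limma adjusted p = 0.743). The interval does not exclude a difference of up to 1.29-fold upward. Without control replicate 1 the sign turned, at -0.04, and without replicate 1 at 8 mg/kg it was -0.02. Without slide 3 it was 0.24 (adjusted p = 0.363).

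In the non-oxidative branch, Taldo1 encodes transaldolase, which passes a dihydroxyacetone unit between sugar phosphates. Its control ratios were 0.11, 0.30, 0.67 and 0.27. The 1 mg/kg mice read 0.51, 0.18, 0.47, 0.63 and 0.52, and the 8 mg/kg mice read 0.62, 0.62, 0.45, 0.62 and 0.46. Every 8 mg/kg mouse lay above 3 of the 4 controls and below control replicate 3, which sits on slide 3. The spread also differed between the groups, with an SD of 0.240 in controls (n = 4), 0.169 at 1 mg/kg (n = 5) and 0.089 at 8 mg/kg (n = 5); no test of the spread was made. The difference at 8 mg/kg was 0.26 ± 0.10 (95% interval 0.06 to 0.47; limma adjusted p = 0.140), the smallest p of the 6 genes, where 0.36 or more would have passed. Without slide 3 it was 0.36 (adjusted p = 0.0826) and without control replicate 3 it was 0.35 (adjusted p = 0.0888).

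Tkt encodes transketolase, the thiamine-dependent enzyme of the same branch. Its control ratios were -0.79, -0.41, -0.47 and -0.40. The 1 mg/kg mice read -0.57, -0.74, -0.26, -0.75 and -0.44, and the 8 mg/kg mice read -0.39, -0.62, -0.68, -0.40 and -0.41. No group stood apart, and the lowest of the 14 ratios was a control. The difference at 8 mg/kg was 0.06 ± 0.10 (95% interval -0.15 to 0.27; limma adjusted p = 0.779), and its sign turned with the scanner's processed signals, at -0.02. Without slide 3 it was 0.13 (adjusted p = 0.537). Slides held 62.6% of the variance of this gene and dose 2.69%.

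Me1 encodes cytosolic malic enzyme, which makes NADPH as it turns malate into pyruvate. On the probe with the strongest signal the control ratios were 1.83, 2.13, 2.62 and 2.36. The 1 mg/kg mice read 2.09, 1.58, 2.53, 1.81 and 1.91, and the 8 mg/kg mice read 1.98, 1.68, 1.57, 1.76 and 1.61. Of the 5 mice at 8 mg/kg, 4 lay below every control, and replicate 1 lay above control replicate 1 on its own slide. The mean ratio was 2.24 ± 0.33 (SD, n = 4) in controls, 1.98 ± 0.36 (n = 5) at 1 mg/kg and 1.72 ± 0.17 (n = 5) at 8 mg/kg. On this probe that is 4.71, 3.96 and 3.30 times the reference. The difference at 8 mg/kg was -0.44 ± 0.17 (95% interval -0.81 to -0.08; limma adjusted p = 0.161), and a difference of 0.65 in size would have been needed to pass.

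The other Me1 probes, fitted with every probe of the array, lay lower by more. They gave -0.59 ± 0.16 (limma adjusted p = 0.0602) and -0.55 ± 0.18 (adjusted p = 0.103), both short of the threshold, and the first probe gave -0.44 in that fit too. On the probe with the largest difference, control ratios ran from 2.93 to 3.74, 1 mg/kg ratios from 2.83 to 3.47 and 8 mg/kg ratios from 2.39 to 2.97. On the last probe they ran from 1.77 to 2.52, from 1.65 to 2.47 and from 1.34 to 1.86. All 3 probes thus had the same order of group means, with overlap between each pair of groups. The fold over the reference depended on the probe. In controls the probe with the largest difference read 10.5 times the reference and the last probe 4.59 times, where the first read 4.71 times. Probes of 1 gene measure the same transcripts in the same mice and are not separate evidence. The value on the first probe was -0.26 without control replicate 3 (adjusted p = 0.463) and -0.62 without control replicate 1 (adjusted p = 0.0955), and without slide 3 it was -0.28 (adjusted p = 0.439).

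Idh1 encodes cytosolic and peroxisomal isocitrate dehydrogenase, which makes NADPH from isocitrate. The control ratios were 3.33, 3.43, 3.88 and 3.54. The 1 mg/kg mice read 3.59, 3.41, 3.50, 3.80 and 3.72, and the 8 mg/kg mice read 3.37, 3.63, 3.32, 3.54 and 3.20. Its signal was far higher in liver than in the reference, by 11.7-fold in controls. The 8 mg/kg mice held both the lowest values and values inside the other groups. The difference from control was -0.10 ± 0.08 (95% interval -0.27 to 0.08; limma adjusted p = 0.546), and its sign turned with median centring, at 0.12. Without slide 3 it was -0.047 (adjusted p = 0.837). Slides held 69.8% of the variance, the most of the 6 genes, and dose within slides 19.3%.

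**Figure D2:**
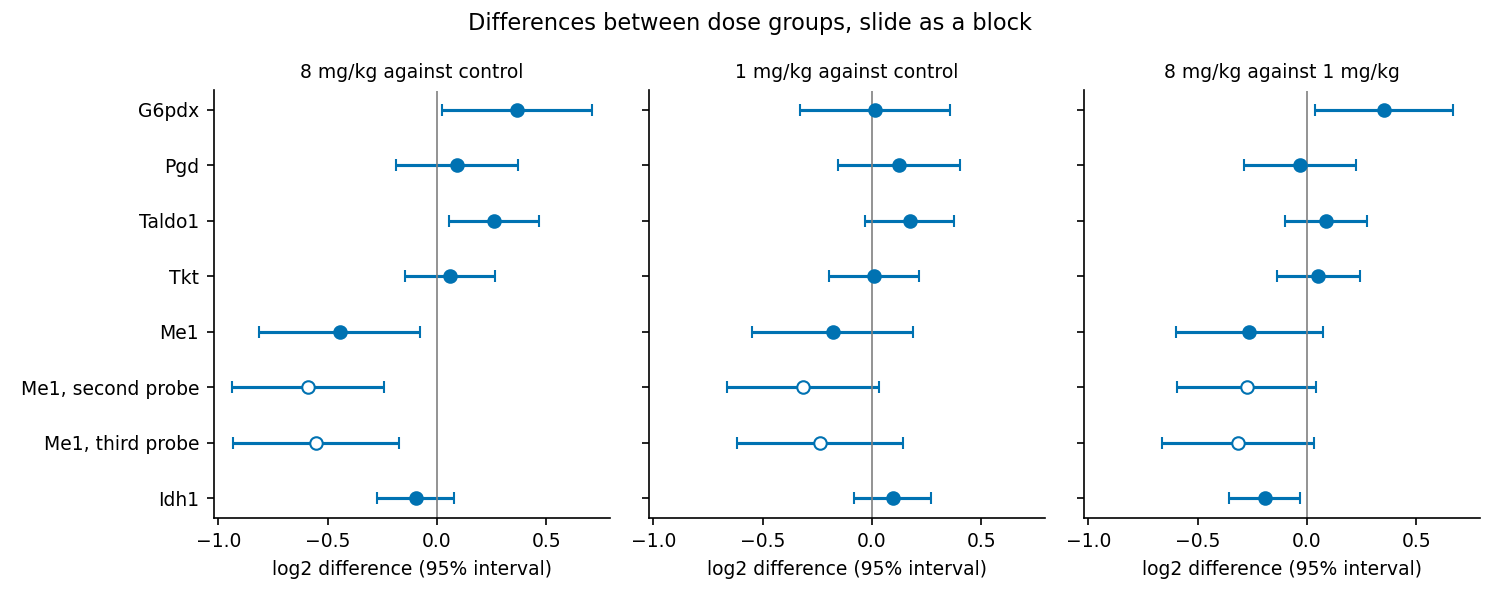
Log2 differences between dose groups (horizontal axis) with 95% intervals from limma for the 8 probes of the 6 genes, a panel for each comparison. Open circles are the further Me1 probes, from the fit of every probe. No probe passed after adjustment, and the points farthest from 0 at 8 mg/kg against control are G6pdx at 0.37 and the Me1 probes at -0.44 to -0.59.

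At 1 mg/kg against control none of the 6 genes passed, and 0% of all features did (0 of 21976, with limma; 1509 features, 6.87%, had an unadjusted p under 0.05, none of them among the 6 genes). The differences were 0.01 ± 0.16 for G6pdx, 0.12 ± 0.13 for Pgd, 0.17 ± 0.10 for Taldo1, 0.01 ± 0.10 for Tkt, -0.18 ± 0.17 for Me1 and 0.10 ± 0.08 for Idh1, with limma adjusted p-values from 0.747 to 0.993. The 95% interval for G6pdx ran from -0.33 to 0.36 and that for Me1 from -0.55 to 0.19. A p that misses the threshold does not show that the low dose left these genes as they were.

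At 8 mg/kg against 1 mg/kg none of the 6 genes passed, where 5.29% of all features did. At an unadjusted p under 0.05 the count was 2 of 6, G6pdx and Idh1, against 21.4% of all features. G6pdx was higher by 0.35 ± 0.15 (limma adjusted p = 0.180), or by 0.17 without replicate 1 at 8 mg/kg. Idh1 lay at -0.19 ± 0.08 (adjusted p = 0.154) and was lower at 8 mg/kg on 5 of 5 slides, with differences from -0.30 to -0.09. Me1 lay at -0.26 ± 0.16 on its brightest probe (adjusted p = 0.362), which was also lower on 5 of 5 slides, with differences from -0.92 to -0.02. The other Me1 probes were lower on 3 of 5 slides (-1.09 to 0.07) and on 5 of 5 (-1.12 to -0.05). Taldo1 (0.09 ± 0.09), Tkt (0.05 ± 0.09) and Pgd (-0.03 ± 0.12) differed by about their standard error or less.

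Because 4 slides held 1 control and 1 mouse at 8 mg/kg, the pair on each slide can be set side by side. On slides 1, 2, 3 and 4 the difference for G6pdx was 1.19, 0.18, -0.07 and 0.14. For Taldo1 it was 0.51, 0.16, -0.06 and 0.35, and for Me1 it was 0.15, -0.52, -0.93 and -0.60. On the probe that stood for each gene, slide 1 gave the highest of the 4 differences for all 6 genes, and slide 3 the lowest for all 6. On the Me1 probe with the largest difference slide 2 was lowest, at -0.96, where slide 3 gave -0.89. The share of all features with this order of slides was not counted.

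**Figure D3:**
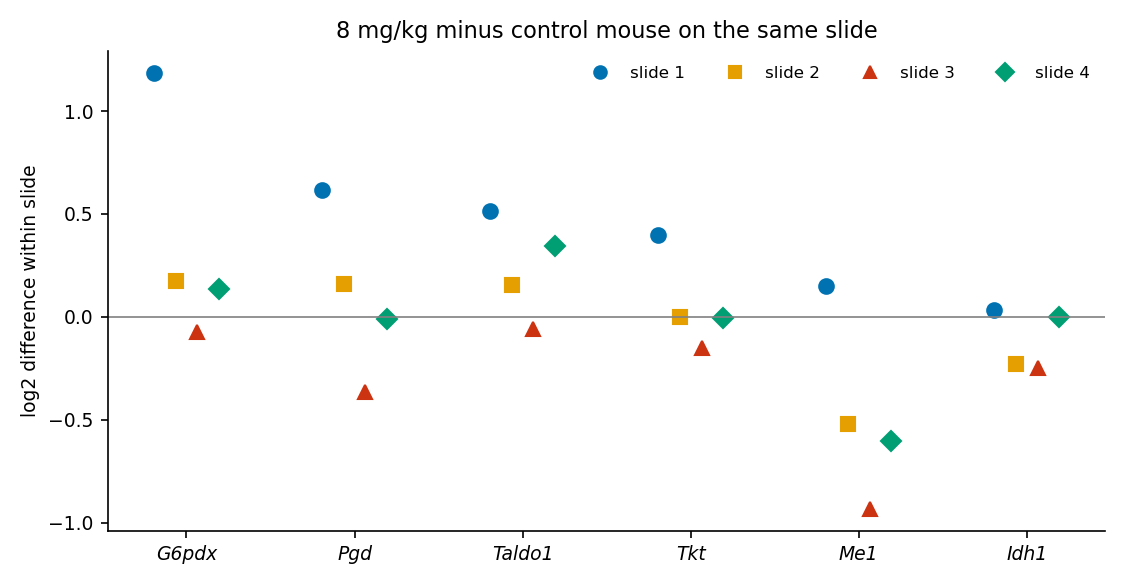
Log2 difference between the 8 mg/kg and the control mouse of the same slide (vertical axis) for each of the 6 genes; points are slides 1 to 4. The slide 1 point is the highest for every gene, reaching 1.19 for G6pdx, and Me1 is below 0 on the other 3 slides.

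The mice behind that pattern can be named. Control replicate 1, on slide 1, had the lowest ratio of the 4 controls for 6 of 6 genes, against 29.4% of 21961 features measured on every array. Control replicate 3, on slide 3, had the highest for 5 of 6, against 42.6% of features. Replicate 1 at 8 mg/kg, on slide 1, had the highest ratio of its group for 5 of 6 genes, all but Idh1, against 17.5% of features. The 6 genes were measured in the same mice, so these counts are not 6 separate observations, and why these mice stood at the ends of their groups was not tested.

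Once the slide means were taken out, the genes fell into different patterns across the 14 arrays. Pgd and Tkt were the most alike pair of the 6, with a Pearson r of 0.861 and a Spearman rho of 0.758. Tkt was at rank 10 for Pgd, with Pgd itself counted first, ahead of the 13763 other genes compared. G6pdx followed Tkt (r = 0.749) and Taldo1 (0.684) and was close to unrelated to Me1 (0.090) and Idh1 (-0.251). With the group means also taken out, so that mice were compared within a dose, every pair of the 6 genes was positively related. The coefficients then ran from 0.411 for G6pdx and Idh1 to 0.933 for Tkt and Me1, and that of G6pdx and Me1 was 0.731. These are descriptions over n = 14 arrays that share dose groups, slides and reference RNA. Taking out slide and group means leaves fewer independent values than 14, and positive pairs among other genes were not counted.

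The genes most like each enzyme over the same arrays were then listed. For G6pdx they were Rrm2 (r = 0.952, rho = 0.890) and Rrm1 (r = 0.930, rho = 0.780), which encode subunits of ribonucleotide reductase, the enzyme that makes deoxyribonucleotides with reducing power drawn from NADPH, followed by Dcaf4 (r = 0.926). Replicate 1 at 8 mg/kg, the mouse with the highest G6pdx ratio, also had the highest Rrm2 ratio, -2.95, where the other 13 ran from -4.70 to -3.92. For Me1 they were Elovl6 (r = 0.968, rho = 0.978), a fatty acid elongase, Pnpla5 (r = 0.956), a lipase family gene, and Fasn (r = 0.934), the fatty acid synthase. For Taldo1 they were Elob (r = 0.980), Smdt1 (r = 0.964) and Prelid1 (r = 0.954). Smdt1, a subunit of the mitochondrial calcium uniporter, passed the test at 8 mg/kg (0.45, limma adjusted p = 0.0322). Pgd was most like Samm50 (r = 0.928), Kcnc4 (0.909) and Actr1b (0.894), and among the genes most like Tkt were Dnd1 (0.886) and Dtwd1 (0.866), and among those most like Idh1 were Perp (0.954) and Pcmtd1 (0.953). The best match of 13763 genes over 14 arrays is high by selection alone, and no test was made.

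**Figure D4:**
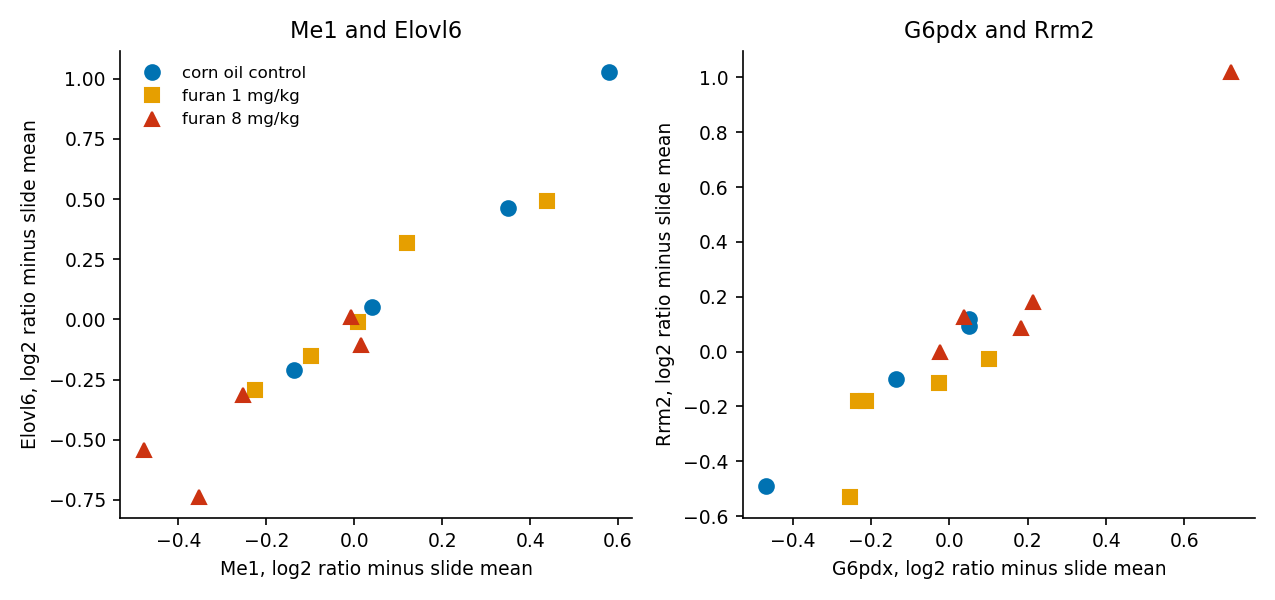
Me1 against Elovl6 and G6pdx against Rrm2, each as log2 ratio minus the mean of its slide, a point for each of 14 arrays coloured by group. Me1 and Elovl6 lie along a line through all 3 groups (r = 0.968), while in the other panel (r = 0.952) 1 mouse at 8 mg/kg lies far above the rest on both axes.

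Other genes of the pathway were counted from lists chosen by function. Of 10 further pentose phosphate genes tested, 0 passed at 8 mg/kg and their median difference was 0.003; the smallest p-values belonged to H6pd, the reticular counterpart of G6pdx, at 0.24 ± 0.09 (limma adjusted p = 0.173), Shpk at -0.23 ± 0.12 (0.270) and Pgls, the lactonase between G6pdx and Pgd, at -0.21 ± 0.12 (0.330). Of 9 further NADPH or NADP sources tested, 0 passed, with a median of 0.073. Glud1, glutamate dehydrogenase, came nearest at 0.28 ± 0.09 (limma adjusted p = 0.0885), followed by Nadk, the kinase that makes NADP, at 0.22 ± 0.08 (0.130), and Mthfd1 of folate metabolism at 0.18 ± 0.09 (0.269). Of 11 partners in isocitrate, malate and citrate metabolism 0 passed against control, with a median of 0.034, and of 10 upper glycolytic genes 0 passed, with a median of 0.072. Among these, mitochondrial malate dehydrogenase Mdh2 lay at 0.30 ± 0.09 (limma adjusted p = 0.0688), pyruvate carboxylase Pcx at -0.31 ± 0.10 (0.105), citrate synthase Cs at 0.11 ± 0.09 (0.561), aldolase Aldoa at 0.29 ± 0.11 (0.154), Gpi1 at 0.23 ± 0.10 (0.216) and Gapdh at 0.20 ± 0.11 (0.347).

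Genes on the consuming side of NADPH did pass, in a comparison where 4.09% of all features passed. Of 12 NADPH-using reductases, 5 rose at 8 mg/kg and 0 fell, with a median difference of 0.259. Carbonyl reductase Cbr3 rose by 1.58 ± 0.20 (limma adjusted p = 0.000955), the quinone reductase Nqo1 by 0.69 ± 0.11 (0.00473), Cbr1 by 0.52 ± 0.10 (0.0119), thioredoxin reductase Txnrd1 by 0.46 ± 0.10 (0.0171) and prostaglandin reductase Ptgr1 by 0.59 ± 0.13 (0.0242). The count rested on the mice of slide 1 in part: 2 reductases rose without control replicate 1, 2 without replicate 1 at 8 mg/kg and 3 without control replicate 4. Of 11 glutathione and antioxidant genes known as NRF2 targets, 8 rose and 0 fell, with a median of 0.916. They included the glutathione synthesis gene Gclc at 1.01 ± 0.14, the heme oxygenase gene Hmox1 at 1.09 ± 0.18, Ephx1 at 0.92 ± 0.08 and the glutathione transferases Gsta1, Gsta2 and Gstm1 at 3.48 ± 0.36, 1.50 ± 0.23 and 0.88 ± 0.11. Probes for the Gsta genes may bind one another's transcripts. Nfe2l2 itself rose by 0.76 ± 0.11 (limma adjusted p = 0.00182), the 1 gene of 10 regulators to pass.

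The list of lipogenic genes, whose pathway spends NADPH, lay on the other side of 0. Of its 14 genes 0 rose and 2 fell at 8 mg/kg, with a median of -0.374. Acacb, an acetyl-CoA carboxylase, fell by 0.88 ± 0.13 (limma adjusted p = 0.00195) and Pklr, the liver pyruvate kinase, fell by 0.57 ± 0.13 (0.0312). Fasn lay at -0.89 ± 0.26 (0.0689). Without control replicate 1 the count was 5 of 14, and without control replicate 2, 3 or 4, or replicate 1, 2 or 5 at 8 mg/kg, it was 1. Their regulators did not pass: Srebf1 lay at -0.38 ± 0.14 (0.146) and Mlxipl, which encodes ChREBP, at -0.19 ± 0.10 (0.299). With limma 0 genes of any of these lists passed at 1 mg/kg, and at 8 against 1 mg/kg the counts were 5 of 12 reductases and 8 of 11 NRF2 targets higher and 2 of 14 lipogenic genes lower. In that comparison 1 of 11 isocitrate, malate and citrate partners, Pcx, was also lower, at -0.36 ± 0.09 (limma adjusted p = 0.0381), and 1 of 10 regulators, Nfe2l2, higher, at 0.60 ± 0.10 (adjusted p = 0.00451). The lists were chosen with earlier results of these data known, and whether they differ from the 6 enzymes was not tested.

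**Figure D5:**
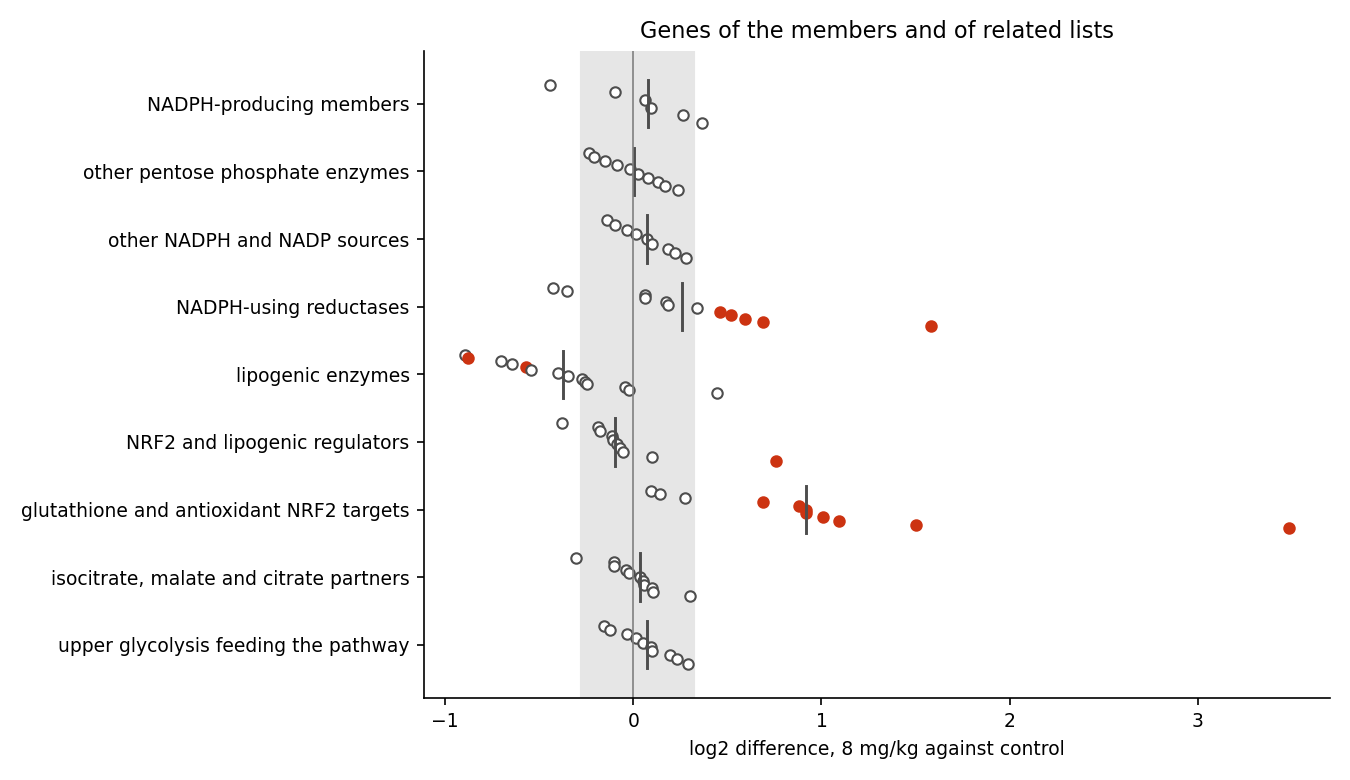
Log2 difference at 8 mg/kg against control (horizontal axis) for each gene of the 6 enzymes and of the related lists, a row for each list; filled points passed limma's adjusted threshold of 0.05, short bars are medians and the grey band spans the 5th to 95th percentile of all features. The 6 enzymes lie between -0.44 and 0.37 with none filled, and filled points lie in the reductase, NRF2 target, regulator and lipogenic rows.

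Markers of other liver cells were counted beside these values. At 8 mg/kg against control 0 of 7 Kupffer cell, 0 of 4 neutrophil, 0 of 6 erythroid, 0 of 7 endothelial, 0 of 7 stellate and 0 of 6 cholangiocyte genes tested passed, and the neutrophil genes Ngp, Mpo and Retnlg were above background on 0 arrays. The smallest p in these lists was that of Marco, a Kupffer cell gene, at 0.66 ± 0.19 (limma adjusted p = 0.0615). The 7 Kupffer cell genes had a median difference of 0.033. Of 8 hepatocyte genes 1 fell, Cps1, by 0.34 ± 0.08 (limma adjusted p = 0.0335). Of 3 exocrine pancreas genes tested 1 fell, Amy2a5, by 0.73 ± 0.11 (limma adjusted p = 0.00238). Amy2a5 and Ctrb1 were above background on all 14 arrays, while Cpa1 and Prss2 were on 0 and Pnlip on 1. Whether the Amy2a5 probe read pancreatic RNA was not tested. At 8 against 1 mg/kg, 1 of 7 stellate genes was lower, Lrat, at -0.64 ± 0.15 (limma adjusted p = 0.0290). Amy2a5 was lower there too, at -0.81 ± 0.10 (adjusted p = 0.000675). The adipocyte markers were above background on few arrays (Cfd on 4, Adipoq and Retn on 3, Lep on 2, Plin1 on 1), and only Cfd was tested: it ran from -0.22 to -0.09 in controls, from -0.11 to 5.52 at 1 mg/kg and from -0.11 to 3.68 at 8 mg/kg. Me1 is also expressed in fat, and the 3 mice with the highest Cfd, at 2.63 and 5.52 in the 1 mg/kg group and 3.68 in the 8 mg/kg group, had Me1 ratios of 2.09, 1.91 and 1.61, inside the range of their groups. Whether any of these markers bears on the 6 enzymes was not tested.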

How the data were processed

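RNA from 14 mouse livers was hybridised with a reference RNA on 2-colour Agilent arrays in 1 dye orientation, per the labels. The deposited scanner files hold spot intensity values read with Feature Extraction 10.7.3.1, per the file headers. The authors' deposited table holds linear ratio values of sample over reference, with a normalization not given in the sources used here; it served as an alternative only. Median intensities were corrected with normexp (offset 50) and normalized by loess within arrays in limma 3.58.1 (R 4.3.3), spots flagged as outliers were left out and repeated spots averaged. Accessions were matched to RefSeq names of GRCm38.p6, which named 26413 of 55681 probes. A probe was tested if well above background in the liver channel on at least 4 of 14 arrays (28867 probes), and the brightest probe stood for its gene (21976 features). Differences were fitted with lmFit and eBayes on all 14 arrays with slide as a fixed block, and p-values adjusted by Benjamini-Hochberg. Replicates are separate mice, per the submitters' design text, and p-values measure the spread between them.

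On simulated data for 8 mg/kg against control (21961 features) the fit recovered 1 of 50 changes of 0.25 log2, 32 of 50 of 0.5, 43 of 50 of 1 and 50 of 50 of 2, with 6 false calls. The simulation changed fewer features in all than the 898 that passed in the data. With fewer changes the adjustment is stricter, so the recovery may be lower than in the data. The members and lists were chosen with earlier results of these data known. All 6 members were named; of each related list the genes past the threshold at 8 mg/kg were named, at most 6 by smallest p, and up to 3 by smallest p where fewer passed, with the 3 most alike genes of each member. Some genes that this rule would name are not reported here. Me1 probes were also fitted with every probe. Same-numbered mice correlated at -0.424 to 0.246 with slide means left in, and those on the same slide at 0.086 to 0.246. Because the slides differed, this cannot decide whether the numbers pair the mice. The main fit did not use the numbers as pairs.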

Additional observations from a re-analysis of the deposited data

How the results depend on the processing

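None of the 6 enzyme genes passed in any of the 3 comparisons with limma under any of 29 alternatives, of which 14 left out 1 array. At their standard errors the smallest difference from control that could have passed at 8 mg/kg ran from 0.31 log2 for Idh1 to 0.65 for Me1. At 8 mg/kg against control the ranges over alternatives were 0.16 to 0.57 for G6pdx, 0.18 to 0.36 for Taldo1, -0.62 to -0.26 for Me1, -0.04 to 0.29 for Pgd, -0.03 to 0.16 for Tkt and -0.15 to 0.12 for Idh1. Median centring moved the median of all features to 0.137 at 8 mg/kg and 0.151 at 1 mg/kg, and Idh1 at 8 mg/kg to 0.117. The counts of related genes, an alternative chosen after seeing the data, ran from 1 to 6 reductases higher and 0 to 1 lower, 5 to 8 NRF2 targets higher and 1 to 5 lipogenic genes lower at 8 mg/kg.

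The number of features that passed moved more. At 8 mg/kg against control 898 passed, against 273 without the slide block, 302 with only the groups compared, 399 without slide 3, 292 with the scanner's processed signals, 1352 with median centring and 122 with the replicate number as a block in a paired analysis. Leaving out 1 array gave 315 to 869. At 8 against 1 mg/kg 1162 passed, against 297 without the slide block, 262 with processed signals, 410 with median centring and 150 with the replicate block; leaving out 1 array gave 418 to 1251, lowest without replicate 1 at 8 mg/kg. In the 1 mg/kg comparison 0 passed, against 4 with median centring and 1 each with no background correction, with the authors' deposited ratios and with no filter, and 0 to 3 with 1 array left out. Of the features that passed at 8 mg/kg against control, 66.7% were higher, against 81.8% with processed signals and 96.4% with median centring; at 8 against 1 mg/kg the shares were 45.7%, 82.8% and 68.3%.

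Signs turned for small differences that passed under no setting. Tkt at 1 mg/kg lay at -0.038 without the slide block, -0.017 with slide as a random block, -0.064 with the replicate block, -0.101 with processed signals, -0.018 with the liver channel alone and -0.097 with the authors' deposited ratios. Tkt at 8 mg/kg lay at -0.012 with the replicate block, -0.020 with processed signals, -0.009 with the liver channel alone and -0.031 with the deposited ratios. At 1 mg/kg Me1 lay at 0.022 without slide 3, Idh1 at -0.018 with processed signals and G6pdx at -0.030 with the deposited ratios. Pgd at 8 against 1 mg/kg lay at 0.078 (processed signals) and 0.058 (liver channel alone). With 1 array left out, at 8 mg/kg Pgd ran from -0.042 to 0.231 and Tkt from -0.031 to 0.143. For 1 mg/kg G6pdx ran from -0.157 to 0.101, Pgd from -0.011 to 0.262, Tkt from -0.082 to 0.092 and Me1 from -0.356 to 0.005. Between the doses Pgd ran from -0.128 to 0.043 and Tkt from -0.008 to 0.095. The cause was not tested.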
